A study of Mus musculus with 6 samples.

Results

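RNA of 10 genes of adipocytes and lipid storage was examined in isolated mammary epithelial cells of *fat-1* and WT mice. The genes were fixed by name, with earlier results of these data known. Each of the 10 matched a single row of the 61880 rows of the deposited count matrix. Both genotypes were female FVB/NJ mice aged 6 to 8 weeks that were kept for life on a modified AIN93G diet, with 10% fat by weight from safflower oil (22% of energy). The *fat-1* mice carry a desaturase transgene of the roundworm *Caenorhabditis elegans* that makes *n*-3 PUFA from *n*-6 PUFA in the whole body, and the WT mice lack it. Each genotype had 3 samples, and each sample was a pool of inguinal glands from 2 to 3 mice by the description of the animals, while the description of the cell isolation gives 6 to 8 mice pooled for each analysis. Lymph nodes were taken out before the glands were digested to free the cells. The stage of the oestrous cycle was not determined, and *p*-values measure the spread between these pools.

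Adipocytes take up fatty acids that lipoprotein lipase releases from circulating triglycerides, store them in lipid droplets and set them free again by lipolysis. They also secrete hormones, the adipokines, among them adiponectin, leptin, resistin and adipsin. In the pubertal mammary gland the epithelial ducts grow into a fat pad made largely of adipocytes. Some lipid-handling genes are not restricted to fat. Fatty acid binding protein 4 and the fatty acid transporter CD36 are also made by capillary endothelium and macrophages, lipoprotein lipase by macrophages and mesenchymal cells, and the lipase ATGL by many cell types.

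Promoters of 3 members are shown to set a pair of hormone genes with few counts, which differ in base composition, beside a lipase gene with many counts. RefSeq sequences (GRCm38.p6) from 250 bases before to 50 bases after a start site were given for 8 of the 10 members (10 promoters, 2 each for *Cidec* and *Lipe*). Capitals mark GGGCGG, the GC box that Sp1-type factors bind, and TTGCNNAA, a C/EBP core, each searched on both strands; neighbouring GC boxes can overlap. Sequences run from 5′ to 3′ along the strand of the gene.
Adipoq, chr16:23146286-23146585, plus strand: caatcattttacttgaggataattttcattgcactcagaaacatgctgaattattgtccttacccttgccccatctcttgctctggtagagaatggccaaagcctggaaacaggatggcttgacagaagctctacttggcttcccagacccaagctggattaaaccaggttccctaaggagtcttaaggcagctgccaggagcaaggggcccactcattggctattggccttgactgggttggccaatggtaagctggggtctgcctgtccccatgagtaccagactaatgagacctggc
Lep, chr6:29059971-29060270, plus strand: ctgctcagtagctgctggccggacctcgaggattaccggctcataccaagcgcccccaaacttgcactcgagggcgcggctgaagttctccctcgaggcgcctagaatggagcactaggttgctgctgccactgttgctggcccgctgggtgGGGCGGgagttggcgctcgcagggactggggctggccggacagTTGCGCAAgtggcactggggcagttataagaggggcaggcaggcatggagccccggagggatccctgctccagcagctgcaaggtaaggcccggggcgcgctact
Pnpla2, chr7:141454938-141455237, plus strand: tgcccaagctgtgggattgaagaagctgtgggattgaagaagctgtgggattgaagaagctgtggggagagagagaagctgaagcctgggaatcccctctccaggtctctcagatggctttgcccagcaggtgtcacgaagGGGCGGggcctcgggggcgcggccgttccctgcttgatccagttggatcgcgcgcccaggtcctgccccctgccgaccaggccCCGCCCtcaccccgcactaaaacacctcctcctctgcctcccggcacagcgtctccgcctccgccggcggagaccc

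The promoter of *Adipoq* had 50% G and C, 0 CpG dinucleotides and 0 GC boxes. That of *Pnpla2* had 65.3% G and C, 18 CpG and a pair of GC boxes, and that of *Lep* had 66.0% G and C, 19 CpG, a GC box and a C/EBP core. Over 32851 promoters of this length the median was 52.7% G and C and 7 CpG, and 35.7% held a GC box and 10.8% a C/EBP core. GC boxes were found in 4 members (*Cd36*, *Lep*, *Lipe* and *Pnpla2*) and a C/EBP core in 2 (*Lep* and *Cidec*). Of the 2 *Lipe* promoters, the one at chr7:25395938-25396237 had 19 CpG and held all GC boxes of the gene, and the one at chr7:25390063-25390362 had 2 CpG and none. No member promoter held TATAAA on the strand of the gene, present in 8.32% of promoters, or the PPAR element (a direct repeat with a spacer base, searched without variation on both strands), present in 0.0396%. These letter matches describe the window and were not tested as binding sites.

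Counts per sample summed to between 204539059 and 232148824, so that 3 counts, the level that a count of 0 allows, correspond to 0.0129 to 0.0147 CPM. CPM is the count scaled to the total of the sample, which was adjusted by TMM factors for all values but this limit. Markers of luminal and basal epithelium were present in the samples, which the labels name only as mammary epithelial cells. The 8 luminal markers summed to between 955 and 4275 CPM. The 7 basal markers summed to between 149 and 607 CPM. The samples also held RNA of other cells, as the 7 fibroblast markers summed to between 1521 and 5984 CPM and the 7 lymphocyte markers to between 626 and 1463 CPM. Without *Cd79a*, whose locus also holds *Arhgef1*, the other 6 lymphocyte markers gave between 359 and 941 CPM. The 8 macrophage markers summed to between 747 and 912 CPM, of which 7 gave between 52.6 and 86.8 CPM and the rest came from the locus of *Cd68*, which also holds *Eif4a1*. *fat-1* sample 1 had the highest luminal and the lowest fibroblast sum. In such bulk samples, fewer cells of a type and less RNA per cell cannot be told apart.

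The 10 genes split by level into *Fabp4*, *Pnpla2*, *Lpl*, *Cd36* and *Lipe*, with at least 1138 counts in every sample, and the adipocyte hormone and droplet genes, with at most 185. Levels between genes are compared as CPM per kilobase of the principal GENCODE transcript, from the row with the gene symbol alone. That row held only 22.6% to 39.8% of the counts of its assembled locus for *Pnpla2* and 17.6% to 55.9% for *Lipe*. The rest lay in rows of other genes and in a row without a symbol. How much of the latter belongs to *Pnpla2* or *Lipe*, and thus their place in the order, was not tested. The median over the 6 samples was 116 for *Fabp4*, 51.0 for *Pnpla2*, 26.0 for *Lpl*, 14.8 for *Cd36* and 2.45 for *Lipe*. It was 0.662 for *Cfd*, 0.250 for *Cidec*, 0.240 for *Retn*, 0.218 for *Adipoq* and 0.0263 for *Lep*. In that order, the ranges of *Lpl* and *Cd36* overlapped, as did those of neighbours from *Cfd* to *Adipoq*, whereas the 6 values of all other neighbours lay apart. When all annotated exons were merged for the length, *Pnpla2* came before *Fabp4*, *Cd36* before *Lpl* and *Adipoq* before *Retn*. *Cfd*, *Cidec*, *Retn*, *Adipoq* and *Lep* together held 163 to 477 counts per sample, which was between 0.237% and 0.703% of the counts of the 10 genes.

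**Figure D1:**
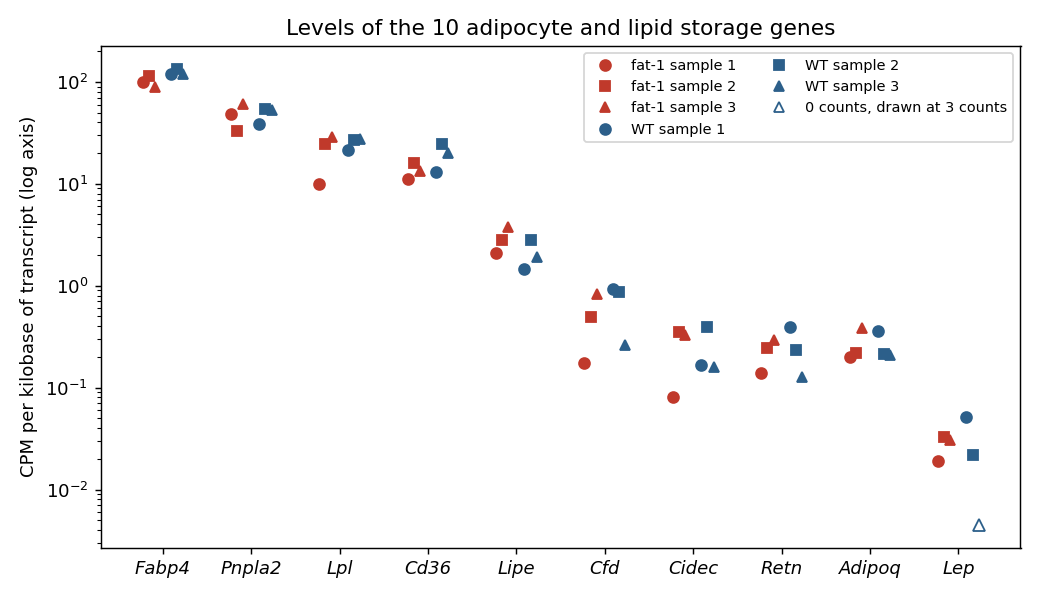
Level of each gene in each of the 6 samples, as CPM per kilobase of transcript on a log axis, with genes in order of their median; red symbols are *fat-1* and blue symbols WT samples, and the open triangle is the *Lep* count of 0 in WT sample 3 drawn at 3 counts. *Fabp4* lies near 116 and *Lep* near 0.0263, and every value of *Lipe* lies above every value of *Cfd*. Values are those of the row with the gene symbol.

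*Adipoq* (chr16:23146536-23158028, GRCm38, plus strand), which encodes adiponectin, was counted 54, 61 and 104 times in *fat-1* samples 1, 2 and 3, against 99, 63 and 56 times in WT samples 1, 2 and 3. All later counts keep this sample order. The genotypes overlapped, with the highest count in *fat-1* sample 3 and the next in WT sample 1. This was 0.347 ± 0.132 CPM (SD, *n* = 3) in *fat-1* and 0.338 ± 0.108 CPM in WT, with a log2 fold change of *fat-1* relative to WT of 0.04 ± 0.37 (here and below, standard error). Per kilobase, *Fabp4* was between 229 and 624 times the level of *Adipoq* within a sample, and *Pnpla2* between 108 and 253 times.

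*Lep* (chr6:29060220-29073877), the gene of leptin, was the lowest of the members. Its counts were 13, 23 and 21 for *fat-1* and 36, 16 and 0 for WT, so that both the highest and the lowest value were WT. A count of 0 in WT sample 3 allows up to 0.0147 CPM. The 95% interval of its fold change ran from 0.213 to 5.95, so a several-fold difference in either direction could have gone unseen in these samples.

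*Retn* (chr8:3655770-3660110), which encodes resistin, was counted 33, 60 and 70 times in *fat-1* and 95, 60 and 30 times in WT. *Cfd* (chr10:79890853-79892655), the gene of adipsin or complement factor D, reached 34, 98 and 159 counts in *fat-1* and 185, 181 and 50 in WT. *Cidec* (chr6:113424634-113435760), whose protein fuses lipid droplets in white adipocytes, reached 29, 130 and 119 in *fat-1* and 62, 152 and 56 in WT. The genotypes overlapped for all of these genes. For *Cfd* and *Cidec*, the lowest value was in *fat-1* sample 1. *Cfd* was 0.461 ± 0.301 CPM (SD, *n* = 3) in *fat-1* and 0.636 ± 0.342 CPM in WT, giving a log2 fold change of -0.46 ± 0.68, and of -0.053 without *fat-1* sample 1, -0.18 and -0.26 without WT samples 1 and 2, -0.85 without WT sample 3 and -1.04 without *fat-1* sample 3. For *Cidec* and *Retn* the log2 fold changes were 0.09 ± 0.64 and -0.14 ± 0.48.

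*Fabp4* (chr3:10204088-10208576, minus strand), whose protein carries fatty acids in the cytosol, was counted 18979, 21712 and 16512 times in *fat-1* and 23007, 27270 and 22085 times in WT. Every *fat-1* sample was below every WT sample. A further row without a symbol belonged to its locus, since the assembly of the authors gave a number to each locus and could place reads of a gene in more than 1 row. The *Fabp4* row held between 95.4% and 96.4% of the counts of the locus. The sum of both rows was 94.3 ± 11.5 CPM (SD, *n* = 3) in *fat-1* and 117 ± 8.12 CPM in WT, a fold change of 0.809 with a 95% interval from 0.666 to 0.983.

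*Lpl* (chr8:68880491-68907448), the gene of lipoprotein lipase, reached 8599, 21852 and 24607 counts in *fat-1*, against 18798, 25244 and 23554 in WT. *fat-1* sample 1 stood below the other 5 samples, among which the genotypes overlapped. Its log2 fold change of -0.26 ± 0.39 came to 0.0796 without that sample and to -0.55 without *fat-1* sample 3. *Cd36* (chr5:17781690-17888801, minus strand), whose product takes up long-chain fatty acids, reached 7911, 11742 and 9486 counts in *fat-1*, against 9484, 19071 and 13922 in WT. WT sample 1 lay just below *fat-1* sample 3, and WT samples 2 and 3 were above all *fat-1* samples. With the other row of its locus, which held between 1.63% and 2.30% of the counts, *Cd36* was 46.9 ± 8.78 CPM in *fat-1* and 66.7 ± 20.6 CPM in WT (SD, *n* = 3). For the sum, the log2 fold change was -0.51 ± 0.26, and it was -0.28 without WT sample 2 and -0.72 without WT sample 1.

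The genes of the lipases that break down stored triglyceride were the pair whose values depended on the row counted. *Pnpla2* (chr7:141455198-141460743), which encodes ATGL, the first lipase of the pathway, was counted 18375, 12838 and 22830 times in *fat-1* and 14934, 22222 and 19762 times in WT, as the row with its symbol gives it. *Lipe* (chr7:25379527-25398710, minus strand), which encodes hormone-sensitive lipase, was counted 1572, 2185 and 2847 times and 1138, 2307 and 1414 times. The genotypes overlapped for both. Per kilobase, *Pnpla2* was between 11.8 and 28.1 times *Lipe* in the rows with the symbol, which held only part of the counts of their loci. The *Lipe* locus also had a row of *Cxcl17* and a row without a symbol, and the *Lipe* row held between 17.6% and 55.9% of its counts. An annotated antisense transcript, *4732471J01Rik*, shares 918 exonic bases with *Lipe*, and whether the counting used strand is not given in the sources used here. The *Pnpla2* locus also had rows of *Cd151* and *Cracr2b* and a row without a symbol, and the *Pnpla2* row held between 22.6% and 39.8%. The sums of both loci therefore measure several genes. The log2 fold change was 0.49 ± 0.33 in the *Lipe* row and 0.02 ± 0.18 in its locus sum, and for *Pnpla2* -0.04 ± 0.26 and 0.03 ± 0.18. With a sample left out, that of the *Lipe* row ran from 0.25 (without *fat-1* sample 3) to 0.78 (without WT sample 2). The share of the locus in the *Lipe* row was 40.2% ± 17.4 (SD, *n* = 3) in *fat-1* and 28.3% ± 12.4 in WT (two-sided exact permutation *p* = 0.4), and the corresponding *p* was 0.9 for *Pnpla2*, 0.5 for *Fabp4* and 1.0 for *Cd36*, 4 tests in all without adjustment. The difference of 11.9 percentage points for *Lipe* ran from 3.99 without *fat-1* sample 3 to 21.2 without *fat-1* sample 1. With 3 against 3 samples this test cannot give a *p* below 0.1.

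**Figure D2:**
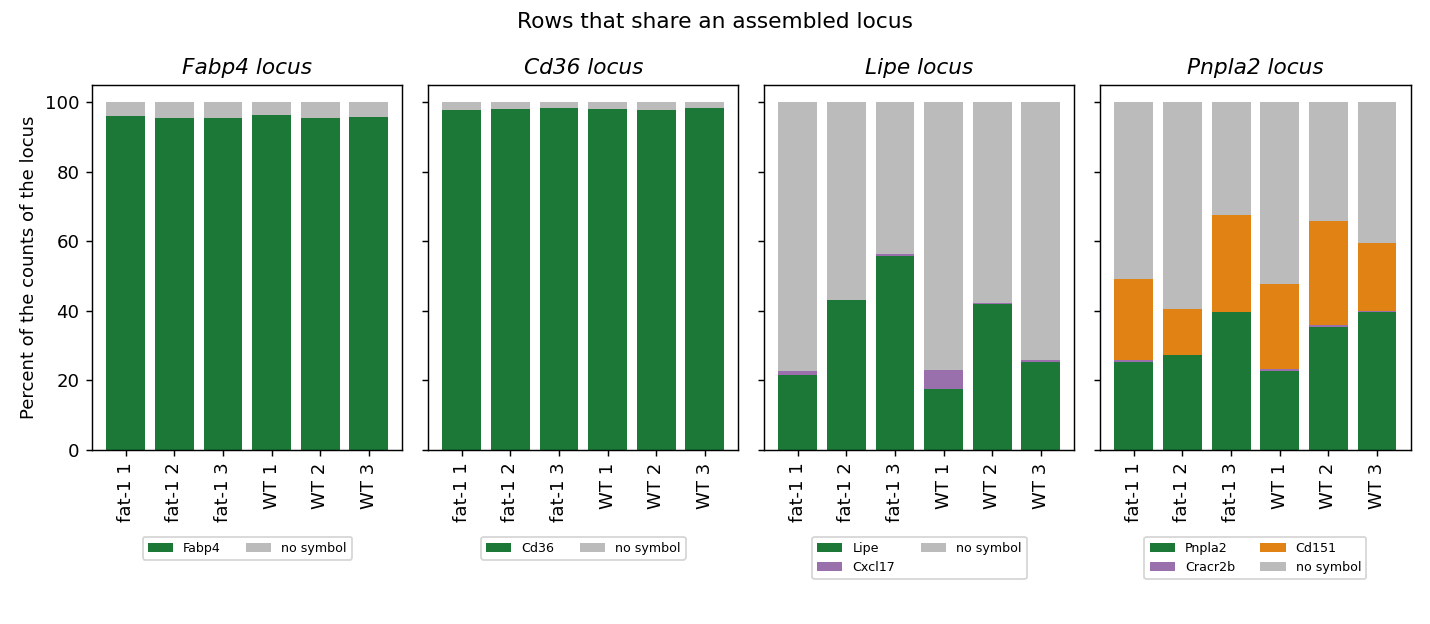
Percent of the counts of a locus in each of its rows, as stacked bars per sample, for the 4 members whose locus had more than 1 row; green is the row of the member, grey the row without a symbol, and orange and purple are rows of other genes. The green share stays above 95% for *Fabp4* and *Cd36* and ranges from 17.6% to 55.9% for *Lipe* and from 22.6% to 39.8% for *Pnpla2*.

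Whether lifelong *n*-3 PUFA exposure went with a different level of these genes was tested with genotype as the only term. All 10 members passed the filter on low counts at both levels. Over the 30683 rows tested with edgeR (quasi-likelihood fit, Benjamini–Hochberg), 0 of the 10 members reached an adjusted *p* of 0.05 (0% of all rows), and all had an adjusted *p* of 1.00. At an unadjusted *p* of 0.05 there were 0 members, beside 2.21% of all rows. edgeR's exact test gave 0 members adjusted (0.101% of rows) and 0 unadjusted (1.98%), and DESeq2 gave 0 adjusted (0.303%) and 0 unadjusted (3.02%). With the sums of the loci, 0 of the 10 members passed after adjustment by the quasi-likelihood fit (0% of 24061 loci), the exact test (0.0249%) or DESeq2 (0.0332%). *Fabp4* alone reached the unadjusted threshold (unadjusted *p* = 0.0370 and adjusted *p* = 1.00 in edgeR's quasi-likelihood fit, lower in 3 of 3 *fat-1* samples), beside 1.14% of all loci. It also did so in DESeq2 (unadjusted *p* = 0.0430, 1.49% of loci), but 0 members did in the exact test (1.06% of loci), where the unadjusted *p* of *Fabp4* was 0.0861. Without *fat-1* sample 1 or 3 or without WT sample 1, 2 or 3, its unadjusted *p* in edgeR was 0.0924, 0.114, 0.0660, 0.120 and 0.0736, and without *fat-1* sample 2 it was 0.0164. *Fabp4* was the only member whose genotypes did not overlap, which held for 5.26% of all rows and 4.15% of all loci. In the rows with the symbol, 6 members were below WT, beside 48.8% of all rows. Of the members, 5 had a locus sum below WT, beside 49.4% of all loci, and the median log2 fold change was -0.06, beside 0.00 over all loci.

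**Figure D3:**
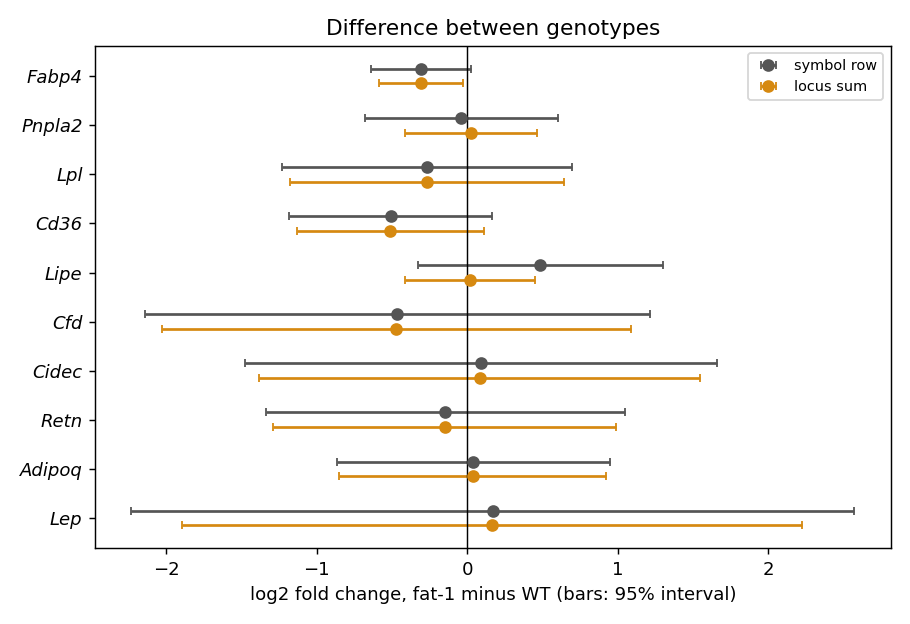
Log2 fold change of *fat-1* relative to WT for each gene, with 95% intervals from edgeR's quasi-likelihood fit, for the row with the gene symbol (grey) and the sum of the locus (orange). The interval of every gene includes 0 except that of the *Fabp4* locus sum, and those of *Cfd*, *Cidec*, *Retn* and *Lep* are the widest.

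The intervals give the size of a difference that these samples could leave unseen. For the fold change of *fat-1* over WT in the rows with the symbol, the 95% interval ran from 0.625 to 1.52 for *Pnpla2*, from 0.441 to 1.12 for *Cd36*, from 0.427 to 1.62 for *Lpl* and from 0.798 to 2.46 for *Lipe*. It ran from 0.548 to 1.93 for *Adipoq* and from 0.226 to 2.32 for *Cfd*.

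In locus sums the log2 fold change was -0.26 ± 0.11 for *Cdh5*, the cadherin of endothelial junctions, and -0.38 ± 0.16 for *Emcn*, endomucin, beside -0.31 ± 0.12 for *Fabp4*. Unadjusted *p* in edgeR's quasi-likelihood fit was 0.0541 for *Cdh5* and 0.0522 for *Emcn* (both adjusted *p* = 1.00). These were the smallest of the endothelial markers. The 8 endothelial markers summed to between 244 and 275 CPM in *fat-1* and between 260 and 305 CPM in WT, and none was at 0 counts. Log2 fold changes were below 0 for 6 of the 8, beside 49.4% of all loci, and above 0 for *Kdr* (0.09) and *Egfl7* (0.20). Those below 0 ran from -0.38 for *Emcn* to -0.0031 for *Pecam1*. Log2 fold changes were also below 0 for 7 of 7 fibroblast markers (median -0.20, beside -0.15 for the endothelial markers) and 5 of 8 macrophage markers. The part of these cells in the *Fabp4* value was not tested.

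Across the 6 samples, each member was compared with the mean log2(CPM + 1) of luminal, basal, endothelial, macrophage, fibroblast and lymphocyte markers, 60 relations in all. After adjustment, 0 reached 0.05 in the exact permutation test, and before it 9 did for Pearson's r and 5 for Spearman's rho. These are relations of locus sums, which for *Lipe* and *Pnpla2* measure several genes. With the symbol rows of the members, 4 did for r and 3 for rho before adjustment. The values of *Cd36* and the endothelial markers gave r = 0.957 (exact permutation *p* = 0.00417, 0.0833 adjusted) and rho = 0.943 (exact permutation *p* = 0.0167, 0.250 adjusted). Leaving out the 2 samples farthest from the median marker level gave r = 0.717. With the macrophage markers, *Cd36* had r = 0.800 (exact permutation *p* = 0.0583, 0.318 adjusted), the same rho of 0.943 (exact permutation *p* = 0.0167, 0.250 adjusted) and r = 0.879 on leaving out the 2 farthest samples. *Lpl* and the fibroblast markers gave r = 0.973 (exact permutation *p* = 0.00417, 0.0833 adjusted) and rho = 0.943 (exact permutation *p* = 0.0167, 0.250 adjusted), and r = 0.866 on leaving out the 2 farthest samples. With the macrophage markers, *Lpl* had r = 0.8965 (exact permutation *p* = 0.0153, 0.1905 adjusted) and rho = 0.657 (exact permutation *p* = 0.175, 0.558 adjusted). That r was 0.18 on leaving out the 2 farthest samples. For *Cd36* with the endothelial and *Lpl* with the fibroblast markers, the lowest value of both measures was in *fat-1* sample 1. For *Fabp4* and the endothelial markers the values were r = 0.669 (exact permutation *p* = 0.153, 0.539 adjusted), rho = 0.600 (exact permutation *p* = 0.242, 0.558 adjusted) and r = -0.18 on leaving out the 2 farthest samples. The *Pnpla2* locus sum and the luminal markers gave r = 0.968 (exact permutation *p* = 0.00278, 0.0833 adjusted), rho = 0.943 (exact permutation *p* = 0.0167, 0.250 adjusted) and r = 0.898 on leaving out the 2 farthest samples. For the *Pnpla2* row alone, r was 0.135 (exact permutation *p* = 0.815, 0.915 adjusted) and rho 0.0857 (exact permutation *p* = 0.919, 0.968 adjusted). With the basal markers the *Pnpla2* locus sum had r = 0.946 (exact permutation *p* = 0.0181), and with the lymphocyte markers -0.911 (exact permutation *p* = 0.0194). Both were 0.1905 adjusted. For its row, these r were 0.0743 and -0.062. The *Lipe* locus sum had r = -0.91 with the macrophage and -0.89 with the fibroblast markers (exact permutation *p* = 0.0292 and 0.0222, 0.219 and 0.1905 adjusted). For its row, r was 0.53 and 0.52. *Adipoq* and the fibroblast markers gave r = 0.310 (exact permutation *p* = 0.596, 0.750 adjusted) and rho = 0.486 (exact permutation *p* = 0.356, 0.680 adjusted). With the same markers *Cidec* had r = 0.782 (exact permutation *p* = 0.0389, 0.259 adjusted) and rho = 0.600 (exact permutation *p* = 0.242, 0.558 adjusted). On leaving out the 2 farthest samples, r of *Cidec* was 0.165. For *Cfd*, *Retn* and *Lep*, r with the fibroblast markers was 0.566, 0.271 and -0.078. Each genotype has too few samples for these relations to be tested within it.

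**Figure D4:**
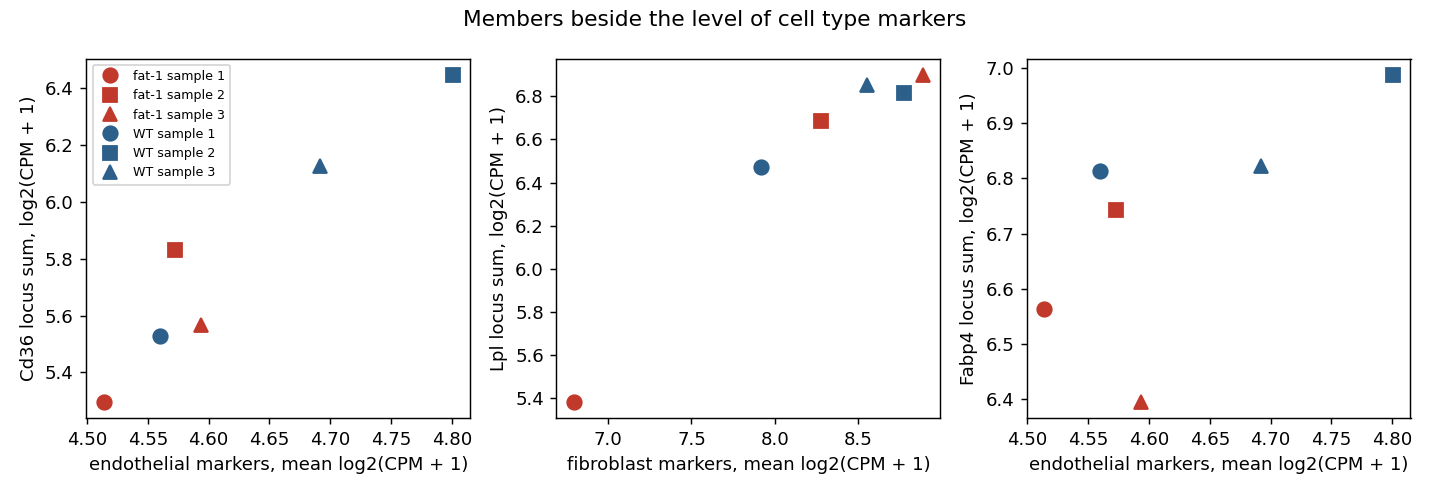
*Cd36* and *Fabp4* beside the mean level of 8 endothelial markers and *Lpl* beside that of 7 fibroblast markers, all as log2(CPM + 1) of locus sums, with 1 point per sample (*fat-1* red, WT blue). *Cd36* and *Lpl* have r = 0.957 and 0.973 with these markers, *fat-1* sample 1 is the lowest point of both, and the points of *Fabp4* scatter more widely (r = 0.669).

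Other genes of the adipocyte were described from lists fixed by name, also with earlier results of these data known. In any of these lists, 0 genes were past the adjusted threshold by edgeR's quasi-likelihood test on locus sums. Of 16 adipocyte identity genes, 6 had a log2 fold change above 0, beside 12178 of all 24061 loci, and the median was -0.16. Low counts were found for several of them, such as 17 to 32 of *Adrb3*, the beta-adrenergic receptor typical of adipocytes, 38 to 123 of *Pck1*, which serves glycerol synthesis in fat, 41 to 141 of *Lgals12*, a galectin of lipid droplets, and 73 to 199 of *Trarg1*, a partner of the insulin-regulated glucose transporter. The adipogenic transcription factors *Pparg* and *Cebpa* had 940 to 1724 and 10915 to 14191 counts, and their log2 fold changes of -0.23 ± 0.21 and 0.02 ± 0.12 were within the spread of the samples. Other genes of the list also had higher counts, such as 12500 to 28312 of *Pde3b*, 2299 to 8410 of *Cdo1*, 226 to 1239 of *Car3* and 574 to 978 of *Rbp4*. *Acvr1c*, an activin receptor of adipocytes, was the only gene of the list at the unadjusted threshold, with 48, 44 and 51 counts in *fat-1* and 92, 69 and 80 in WT, with a log2 fold change of -0.73 ± 0.24 (unadjusted *p* = 0.0201, adjusted *p* = 1.00 in edgeR). Of 7 brown adipocyte genes, 4 had a log2 fold change above 0, beside the same 12178 of 24061 loci, and the median was 0.04. *Ucp1*, the uncoupling protein of heat production, had 38 to 78 counts and a log2 fold change of 0.04 ± 0.31. *Dio2*, which activates thyroid hormone, had 521, 441 and 632 counts in *fat-1* and 977, 1363 and 779 in WT, with a log2 fold change of -0.93 ± 0.24 (unadjusted *p* = 0.00707, adjusted *p* = 1.00 in edgeR). For both *Acvr1c* and *Dio2*, every *fat-1* sample was below every WT sample. Over all loci, the genotypes did not overlap in 4.15%, and 1.14% reached the unadjusted threshold.

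In locus sums, the partners of the members in lipid uptake, storage and release had 0 genes at the unadjusted threshold among 14 genes of fatty acid uptake and triglyceride synthesis, 11 of lipolysis and 8 of droplet formation. Their median log2 fold changes were -0.06, -0.10 and 0.02. Among the rows with the symbol, 2 of these genes reached it, beside 2.21% of all rows, and 0 passed after adjustment. *Lmf1*, which helps lipoprotein lipase to mature, had 423, 594 and 559 counts in *fat-1* and 374, 408 and 276 in WT, a log2 fold change of 0.61 in its row (unadjusted *p* = 0.0311 in edgeR) and -0.06 in its locus sum. *Cidea*, a droplet protein related to that of *Cidec*, had 47, 97 and 69 counts in *fat-1* and 243, 164 and 115 in WT, with -1.26 in its row (unadjusted *p* = 0.0172 in edgeR) and 0.40 in its locus sum. The locus sum of *Cidea* was 2.41 CPM in *fat-1* sample 1. In *fat-1* samples 2 and 3 it was 0.452 and 0.332 CPM, below all WT samples (0.559 to 1.14 CPM). *Dgat2*, which makes triglyceride, was at 92.8 to 223 CPM over the samples, and *Abhd5*, the activator of ATGL, at 57.2 to 76.7 CPM. *Gpihbp1*, which holds lipoprotein lipase on the capillary wall, had 24 to 98 counts, and *G0s2*, the inhibitor of ATGL, 113 to 255 counts. All 4 adipokine receptor genes had a log2 fold change above 0, beside 12178 of all 24061 loci, and none was at the unadjusted threshold. It was 0.01 for *Cdh13*, 0.02 for both *Adipor1* and *Adipor2* and 0.65 ± 0.42 for *Lepr*. The adiponectin receptor genes *Adipor1* and *Adipor2* had locus sums of 127 to 176 and 125 to 166 CPM. The row of *Adipor2* alone held 9599, 3775 and 17394 counts in *fat-1* and 3869, 4047 and 4813 in WT, a log2 fold change of 1.31 (unadjusted *p* = 0.0521 in edgeR), whereas that of its locus was 0.02 ± 0.13. Of 8 adipose progenitor genes 3 had a log2 fold change above 0, beside the same 12178 of 24061 loci. *Pdgfra*, a receptor of mesenchymal progenitors, ranged from 82.6 to 246 CPM.

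The loci whose levels were most like *Adipoq* over the 6 samples, by Pearson's r of log2(CPM + 1) among 22979 tested loci with a symbol, were *Gm13690* (r = 0.989), *Akt2-ps* (r = 0.989), *Tmem59l* (r = 0.981), *Gm5203* (r = 0.980) and *Gm8023* (r = 0.973). These r are descriptions of 6 values chosen as the highest, with rho from 0.600 to 0.886, and 64 loci had an r over 0.9.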

How the data were processed

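The deposited matrix holds estimated counts for 6 samples, mapped to genotype and replicate number by the sample labels, and 0 value columns were left without a sample. The authors mapped reads to GRCm38 with HISAT2 and assembled and quantified transcripts with StringTie. Tool versions, the annotation, the use of strand and the step from coverage to counts are not given in the sources used here. Values were whole numbers, so rounding changed nothing, and the empty line before each row was skipped.

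Rows sharing a locus number were summed (61880 rows, 53912 loci). Rows and loci were tested in R 4.3.3 with edgeR 4.0.16 (filterByExpr, TMM, quasi-likelihood fit with legacy=FALSE, Benjamini–Hochberg, threshold 0.05), and with the exact test and DESeq2 1.42.0 as alternatives. Standard errors were obtained from the F statistic, as the size of the log2 fold change over its square root. The tests were tested on simulated data. Floors were set at 3 counts and cover counting error only. Totals ran from 204539059 to 232148824 counts. Same-numbered samples were not paired. Positions and lengths are from GENCODE M21 (GRCm38), matched by symbol. Members and gene lists were chosen with earlier results of these data known. Named genes are all members, of each other list up to 2 genes with the smallest unadjusted *p* under 0.05, adipocyte identity genes near 0 counts and the 5 loci most like *Adipoq*; other genes were named after their values were seen, and the relations of member rows (in place of locus sums) with marker levels were added after seeing the data. Python 3.11.15 was used for summaries.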

Additional observations from a re-analysis of the deposited data

How the results depend on the processing

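The count of members past the adjusted threshold was 0 for rows and for locus sums under every setting tried: DESeq2 size factors, upper quartile factors, no filter, the older quasi-likelihood fit, the exact test, DESeq2, the replicate block and each sample left out. At the unadjusted threshold the count of locus sums was 1, and it was 0 with upper quartile factors or the exact test, 2 (*Fabp4* and *Cd36*) with the replicate block and 0 to 1 with a sample left out. It was 0 without *fat-1* sample 1 or 3 or WT sample 2 or 3, and without WT sample 1 the member counted was *Cd36*. For rows it was 0, and 1 (*Cd36*) with the block or without WT sample 1 and 1 (*Fabp4*) without *fat-1* sample 2, thus 0 to 1 with a sample left out. Samples share only a number: the deviations of same-numbered samples correlated at 0.799, -0.16 and 0.132, so the block was not used. Only the samples numbered 1 correlated best with their own number.

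With a sample left out, log2 fold changes turned sign for *Adipoq* (rows -0.32 to 0.33, locus sums -0.32 to 0.33), *Lpl* (-0.55 to 0.0796 and -0.55 to 0.0815), *Lep* (-0.40 to 1.30 and -0.38 to 1.28), *Cidec* (-0.22 to 0.65 and -0.22 to 0.64), *Retn* (-0.46 to 0.32 and -0.44 to 0.32), *Pnpla2* (-0.26 to 0.16 and -0.14 to 0.18) and the locus sum of *Lipe* (-0.17 to 0.12). The sign was kept for *Fabp4* (-0.40 to -0.22 and -0.40 to -0.22), *Cd36* (-0.72 to -0.28 and -0.72 to -0.28), *Cfd* (-1.04 to -0.053 and -1.04 to -0.057) and the row of *Lipe* (0.25 to 0.78). Among the other settings, the sign turned once, for the row of *Cidec* with the replicate block (-0.0233). The cause was not tested. The relations with marker levels past the adjusted threshold were 0 also with a pseudocount of 0.1 and with the rows of the members, and the genes of the other lists past it were 0 with each sample left out. Counts of *Lep*, *Retn*, *Adipoq*, *Cidec* and *Cfd* were at most 185 per sample. The parts of depth and of the spread between pools in the width of their intervals were not tested.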
